A study of Homo sapiens with 28 samples.

Results

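The clusters described here are places in the genome of senescent human fibroblasts where binding sites of the transcription factor FOXF1 lie close together. Peaks of the 2 FOXF1 libraries of senescent cells, on chromosomes 1 to 22 and X, were merged wherever they shared 1 bp or more, and a merged region with a peak from both libraries was taken as a site. Sites no more than 25000 bp from the next were chained, and a chain of 3 or more sites, from the start of the first to the end of the last, was a cluster. There were 473 clusters, which held 1607 of the 11287 sites (14.2%). Another 2684 sites (23.8%) stood in 1342 pairs, and 6996 sites (62.0%) had no neighbour within that distance and are called single. The clusters were chosen by the FOXF1 peaks of senescent cells, so FOXF1 values in those libraries are given as a description with no test. Values of other antibodies at the sites may also reflect that choice, and its part in them was not tested.

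The study mapped FOXF1 (8 libraries), phosphorylated c-JUN (p-c-JUN, 6 libraries) and acetylated histone H3 lysine 27 (H3K27ac, 14 libraries) by CUT&RUN, in which a nuclease tethered to an antibody cuts out the bound DNA. All cells were IMR-90 ER:Ras, a line of fetal lung fibroblasts carrying an oncogenic Ras that 4-hydroxytamoxifen (4OHT) switches on. Its stated questions concern FOXF1 and FOXF2 in senescent cells. Each library came as its own peak list, and no list was pooled.

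In the groups with knockdown, 4OHT (100 nM, 6 days) was combined with small interfering RNAs against FOXF1 and FOXF2 (siFOXF1/2), against JUN family members (cJUN/JUND-KD), or against the acetyltransferases p300 and CBP (sip300/CBP). Senescent cells (Sen) had the same 4OHT treatment and the control RNA siCtrl. The sip300/CBP libraries had 2 Sen libraries of their own as control, and the H3K27ac libraries of cJUN/JUND-KD were set against Sen replicates 3 and 4, whose record numbers run on from theirs. Proliferating cells (Pro) were named so in the sample titles, but their tags gave the same 4OHT treatment, siCtrl and senescent cell type as the Sen samples. The cJUN/JUND-KD samples were titled for cJUN and JUND, while their treatment tag also named JUNB. All groups therefore shared the Ras fusion and, by the tags, 4OHT. Each group had 2 libraries, except H3K27ac in Sen cells with 4 in all, and nothing says that they came from separate cultures, so the p-values below measure only the spread between libraries, which may be technical. With 2 libraries against 2, the exact two-sided permutation test has 6 arrangements and cannot give a p below 0.333.

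FOXF1 is a forkhead transcription factor of the lung mesenchyme, where it acts downstream of hedgehog signals. c-JUN is a subunit of AP-1, the dimeric factor that stress and Ras signals activate by phosphorylation and that marks many enhancers of senescent cells. H3K27ac marks active enhancers and promoters and is written by p300 and CBP. Runs of nearby binding sites are a known feature of large enhancers, in which several elements can act on a shared gene.

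Peak lists held from 133 to 93443 peaks, and the number of sequenced reads behind them is unknown. FOXF1 lists had 186 and 133 peaks in siFOXF1/2 cells, 378 and 883 in cJUN/JUND-KD cells, 13603 and 40537 in Sen cells and 3441 and 11061 in Pro cells. The p-c-JUN lists had 75005 and 86110 peaks in siFOXF1/2 cells, 70177 and 93443 in Sen cells and 24808 and 32136 in Pro cells. A share of sites with a peak can follow the length of the list, so list lengths are kept beside the results they move with. No gene annotation or genome sequence of the build of the lists (hg19) was used here, and the clusters are therefore named by hg19 coordinates, counted from 1.

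Most clusters were small. Of the 473, 344 held 3 sites, 92 held 4, 23 held 5, 8 held 6, 4 held 7 and 2 held 8. They spanned a median of 29518 bp, from 5683 to 87560 bp, and 14.8 Mb in all, of which 5.98% lay inside the sites themselves. Neighbouring sites of a cluster were a median of 11691 bp apart, from 121 to 24941 bp. The largest gap joined anywhere was 24992 bp and the smallest not joined was 25001 bp. Just inside the limit on number, clusters of exactly 3 sites had a median span of 26762 bp, and just outside it, pairs had 13266 bp. The weaker of the 2 FOXF1 fold enrichments of a site, as the authors' peak caller gave it, had a median of 5.35 in clusters of 3 and 5.46 in pairs.

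**Figure D1:**
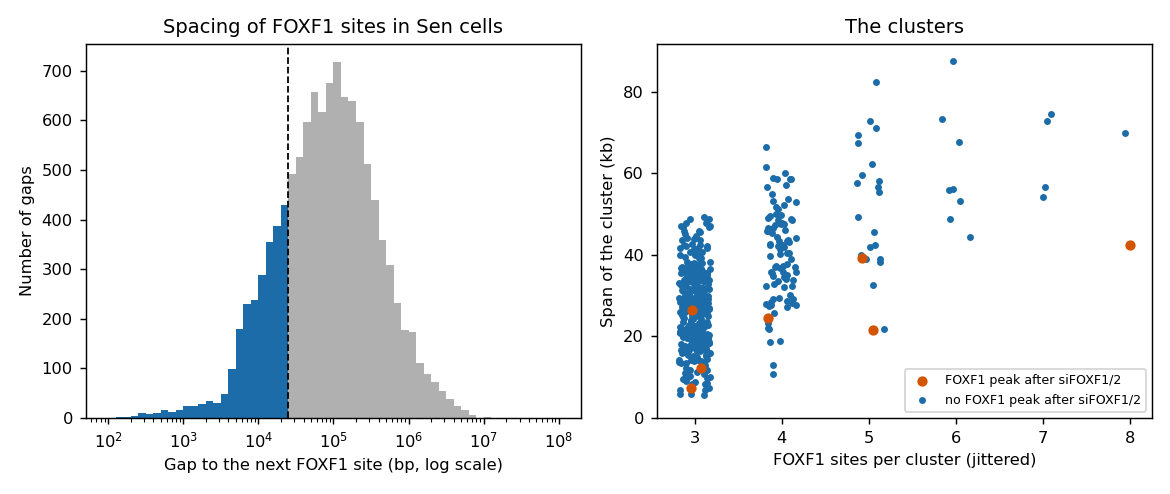
Left, number of gaps between neighbouring FOXF1 sites of Sen cells by gap length (bp, log scale), with the gaps of 25000 bp or less in blue and the limit as a dashed line. Right, span (kb) of each of the 473 clusters by its number of sites, jittered sideways, with the 7 clusters that kept a FOXF1 peak in siFOXF1/2 cells in orange: most clusters have 3 sites, and 1 of the 2 with 8 sites is orange.

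The clustered sites were not the strongest ones. Their median fold enrichment was 5.69 in FOXF1 Sen replicate 1 and 6.49 in replicate 2. Paired sites had 5.74 and 6.76, and single sites 5.76 and 6.87. Site width was also alike, with medians of 521 bp for clustered, 522.5 bp for paired and 518 bp for single sites. The longer list, replicate 2, had another 357 peaks inside the clusters but outside their sites, spread over 243 clusters, and replicate 1 had 39. How many clusters there are therefore rests on the shorter list: the rule applied to replicate 1 alone gave 663 clusters, and to replicate 2 alone 4542.

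The clusters were spread over every chromosome examined. Chromosome 21 had the largest share of its sites in clusters (20.5%, 26 of 127 sites), followed by chromosomes 8 (19.7%) and 9 (19.3%). Chromosome 22 had the smallest (2.78%, 3 of 108), and chromosomes X (3.28%) and 19 (4.76%) were also low. Chromosomes 1 and 6 held the most clusters, with 42 each.

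The cluster on chr5:52645675-52715594 is the larger of the 2 with 8 sites, at 69.9 kb. FOXF1 peaks lay at 0 and 0 of these sites in siFOXF1/2 cells, at 0 and 0 in cJUN/JUND-KD cells and at 1 and 5 in Pro cells. p-c-JUN sat at 5 and 5 sites in siFOXF1/2 cells, 5 and 5 in Sen cells and 4 and 4 in Pro cells, so 3 of the 8 sites had none in any of the 6 libraries. H3K27ac peaks lay at 4 and 6 sites in siFOXF1/2 cells, 8 and 6 in Sen replicates 1 and 2, and 6 and 6 in Pro cells. The p-c-JUN counts were thus the same in siFOXF1/2 and Sen cells, where FOXF1 went uncalled at all 8 sites in siFOXF1/2 cells.

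The cluster on chr10:42364679-42407021, with 8 sites in 42.3 kb, was of another kind. It held a peak of every one of the 28 libraries. FOXF1 peaks remained at 5 and 4 of its sites in siFOXF1/2 cells and at 7 and 7 in cJUN/JUND-KD cells, against 8 and 8 in Sen cells, and Pro cells had 6 and 6. It begins or ends 0.00926 Mb from the longest stretch of its chromosome without a peak in any library, a kind of stretch that arises, for example, where the reference sequence of a centromere is a gap.

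**Figure D2:**
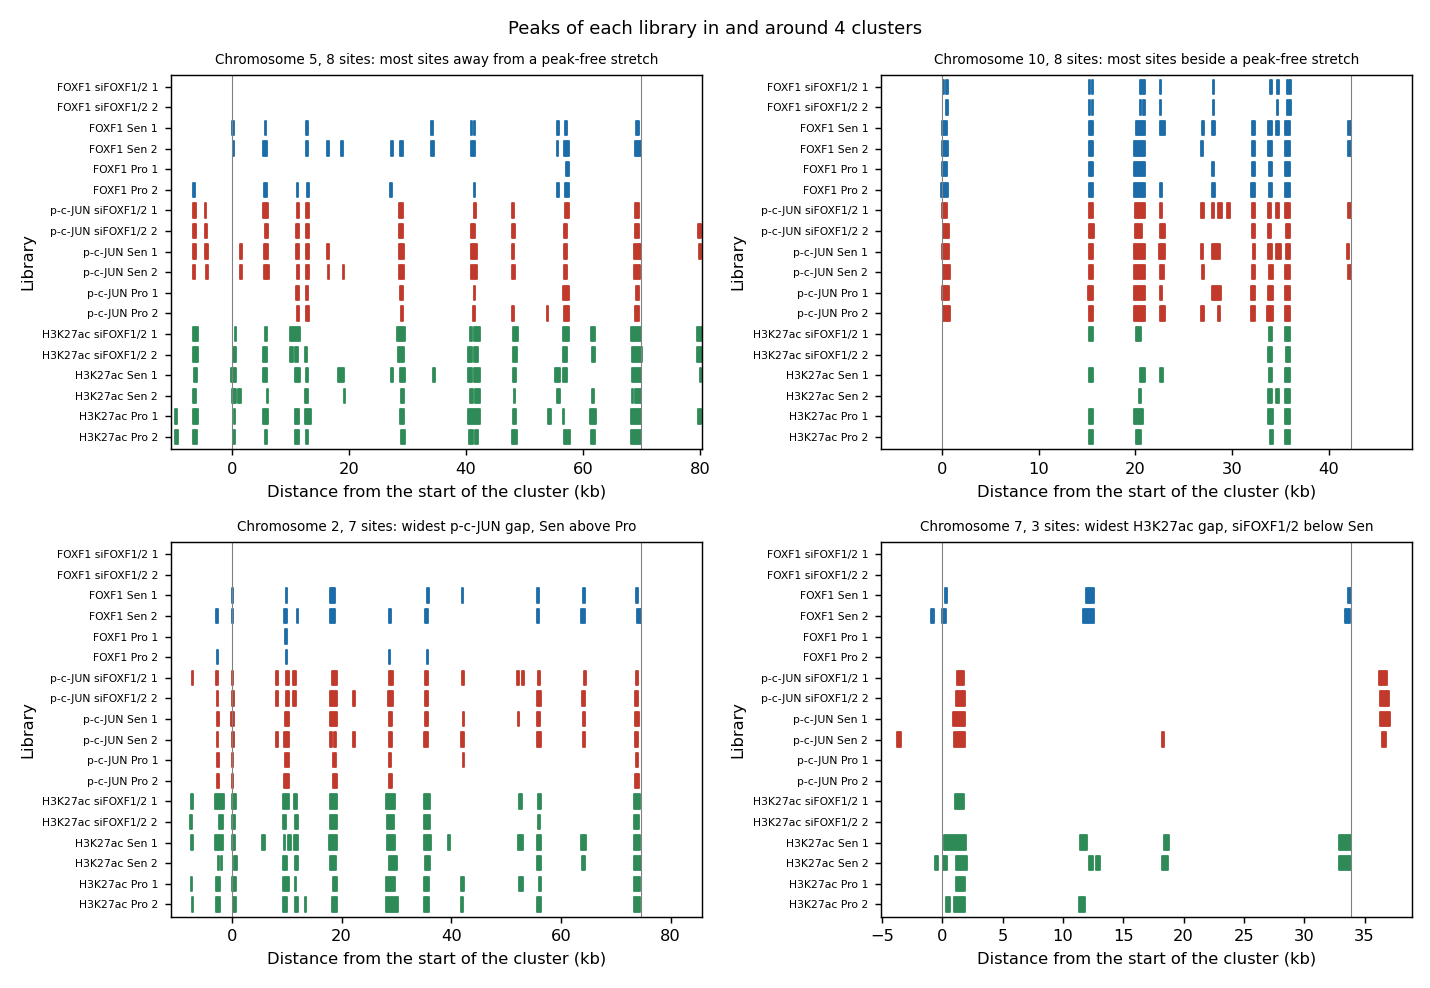
Peaks (bars) of each FOXF1 (blue), p-c-JUN (red) and H3K27ac (green) library along 4 clusters, by distance from the start of the cluster (kb), with grey lines at the cluster's ends. In 3 of the 4 panels the FOXF1 lines of siFOXF1/2 cells are empty, while in the cluster of chromosome 10 they hold peaks at 5 and 4 of the 8 sites.

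The other 8 of the 10 clusters with most sites had no FOXF1 peak at a site in either knockdown. They were chr10:4692668-4746723, chr8:19036978-19093539, chr4:140940362-141013084 and chr2:39722089-39796671 with 7 sites each, and chr6:16669303-16713661, chr14:89769768-89818527, chr7:17551775-17604942 and chr2:102643943-102699783 with 6 each. In Pro cells they had FOXF1 at 0 or 1 sites in the shorter list and at 1 to 5 sites in the longer. In Sen cells p-c-JUN peaks covered 3 to 7 sites of each, and the chr2:39722089-39796671 and chr6:16669303-16713661 clusters had p-c-JUN at every site in both Sen libraries.

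FOXF1 peaks were few in the clusters in the knockdown libraries, as in the genome. The cJUN/JUND-KD libraries of FOXF1 have record numbers of the later set and no FOXF1 Sen library beside them there, so knockdown and set cannot be told apart in them. A FOXF1 peak in at least 1 siFOXF1/2 library remained at sites of 7 clusters, and the other 466 had none. These 7 held 31 sites, of which 23 and 17 had a peak in siFOXF1/2 cells, the libraries that set them apart. In cJUN/JUND-KD cells, which this split did not use, 29 and 29 of the 31 sites had a FOXF1 peak, against 7 and 6 of the 1576 sites in the other clusters.

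Of the 7, 5 lay within 2 Mb of such a stretch, the longest peak-free one of the chromosome, against 5 of the other 466. They were chr2:92281272-92320525 (5 sites), chr10:42364679-42407021 (8), chr11:51569784-51591356 (5), chr16:46403589-46428090 (4) and chr18:18512923-18520306 (3), all within 0.0174 Mb of it. The other 2 were chr2:89867179-89879354 (3 sites, 2.45 Mb away) and chr2:133011955-133038393 (3 sites, 37.3 Mb away). The 7 clusters had a peak at a site in a median of 27 of the 28 libraries, over all 3 antibodies, against 19 for the other clusters. No list of hg19 regions to exclude from peak lists was applied. What these sequences are, and whether the peaks there are FOXF1 binding, was not tested. Because the 7 clusters can carry a result that the other 466 do not share, values below are also given without them wherever that changes the reading.

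Clusters mixed sites that FOXF1 already held in Pro cells with sites it did not. At the clustered sites, 302 (18.8%) had a FOXF1 peak in both Pro libraries, 457 in 1 of them, and 848 (52.8%) in neither. Single sites were divided alike, at 17.8%, 29.3% and 52.9%. By cluster, 63 consisted wholly of sites with no Pro peak, 49 had no such site, and the remaining 361 had both kinds. In 5 clusters every site had a FOXF1 peak in both Pro libraries, and in 246 no site did. By library, 20.3% and 45.7% of clustered sites had a peak in Pro replicates 1 and 2, in step with lists of 3441 and 11061 peaks.

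p-c-JUN was found at most clustered sites in senescent cells. A p-c-JUN peak lay at 77.7% and 83.9% of clustered sites in Sen cells, against 47.5% and 53.0% in Pro cells. The groups did not overlap, and the difference of 30.5 ± 4.12 percentage points (SE, n = 2 each) had the smallest p this design allows (exact two-sided permutation test, p = 0.333). The lists of Sen cells were longer, and once all 4 lists were cut to their strongest peaks at equal length the difference was 1.24 points, with the groups still apart (exact p = 0.333). The size of the difference thus depended on list length, and the cause of the longer Sen lists was not tested. Unless stated, the values below for this comparison use the uncut lists. Single sites showed a difference of 31.1 ± 6.07 points, and the difference between clustered and single sites was itself 0.74 points in Sen cells and 1.36 points in Pro cells (exact p = 0.667).

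Site by site, 683 clustered sites (42.5%) had p-c-JUN in both Sen and both Pro libraries, and 325 (20.2%) in both Sen and neither Pro library. The reverse held at 1 clustered site, and 198 (12.3%) had p-c-JUN in none of the 4. Single sites were divided almost alike, with 40.5% in all 4 libraries, 20.1% in both Sen and neither Pro library and 12.0% in none. In 171 clusters every site carried p-c-JUN in both Sen libraries, and in 5 clusters none did. Sites without a FOXF1 peak in Pro cells had less p-c-JUN there, with peaks at 69.8% and 77.6% in Sen cells and 31.6% and 37.6% in Pro cells. Sites with FOXF1 in both Pro libraries had p-c-JUN at 90.1% and 92.1% in Sen cells and 77.5% and 78.8% in Pro cells.

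Cluster by cluster, the number of sites with p-c-JUN in Sen and Pro cells did not overlap, with Sen higher, in 236 of 473 (49.9%), against 36.7% of pairs of sites, and in 0 with Sen lower (0%, against 0.0745% of pairs). A cluster has more sites than a pair and so more chances to differ. The widest gaps were on chr2:39722089-39796671, with 7 and 7 sites in Sen cells against 4 and 4 in Pro cells, on chr1:172105223-172172798, with 4 and 4 of 6 against 1 and 1, and on chr1:183066421-183108710, with 4 and 5 of 5 against 1 and 1. Of all p-c-JUN regions in the genome, 28% were gained in Sen cells, meaning a peak in both Sen and neither Pro library, and 0.307% were lost. Inside the clusters 629 of 2434 regions (25.8%) were gained and 7 (0.288%) lost, close to those shares. At equal list length 131 were gained and 106 lost, but the genome-wide shares at that length were not computed, so these counts have none beside them.

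After FOXF1/2 knockdown fewer clustered sites had a p-c-JUN peak, although the lists were about as long. Peaks lay at 66.7% and 72.8% of clustered sites in siFOXF1/2 cells, against 77.7% and 83.9% in Sen cells. The groups did not overlap, with a difference of -11.0 ± 4.36 points (SE, n = 2 each; exact two-sided permutation test, p = 0.333, the smallest possible). At equal list length it was -10.3 points (exact p = 0.333), and with any 1 library left out it stayed between -14.1 and -7.90 points. Single sites differed by -11.8 ± 5.92 points. Clustered minus single sites came to 1.57 points in siFOXF1/2 cells and 0.74 in Sen cells (exact p = 0.667). These Sen libraries are the same as in the comparison with Pro cells.

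The p-c-JUN libraries after knockdown stood apart at the sites and overlapped in the DNA around them. Peaks covered 53.3% and 58.2% of the bases of clustered sites in siFOXF1/2 cells, against 61.8% and 66.2% in Sen cells. Between the sites of a cluster they covered 3.30% and 3.45% in siFOXF1/2 cells, against 2.91% and 3.45% in Sen cells. In flanks outside the clusters, each as long as 50% of the cluster's span, the cover was 3.13% and 3.30% in siFOXF1/2 cells, against 2.71% and 3.18% in Sen cells. Both of these overlapped between the groups (exact p = 0.667 for each). The sites were chosen by FOXF1 peaks of Sen cells, and the DNA around them was not. The part of that choice in the contrast was not tested.

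**Figure D3:**
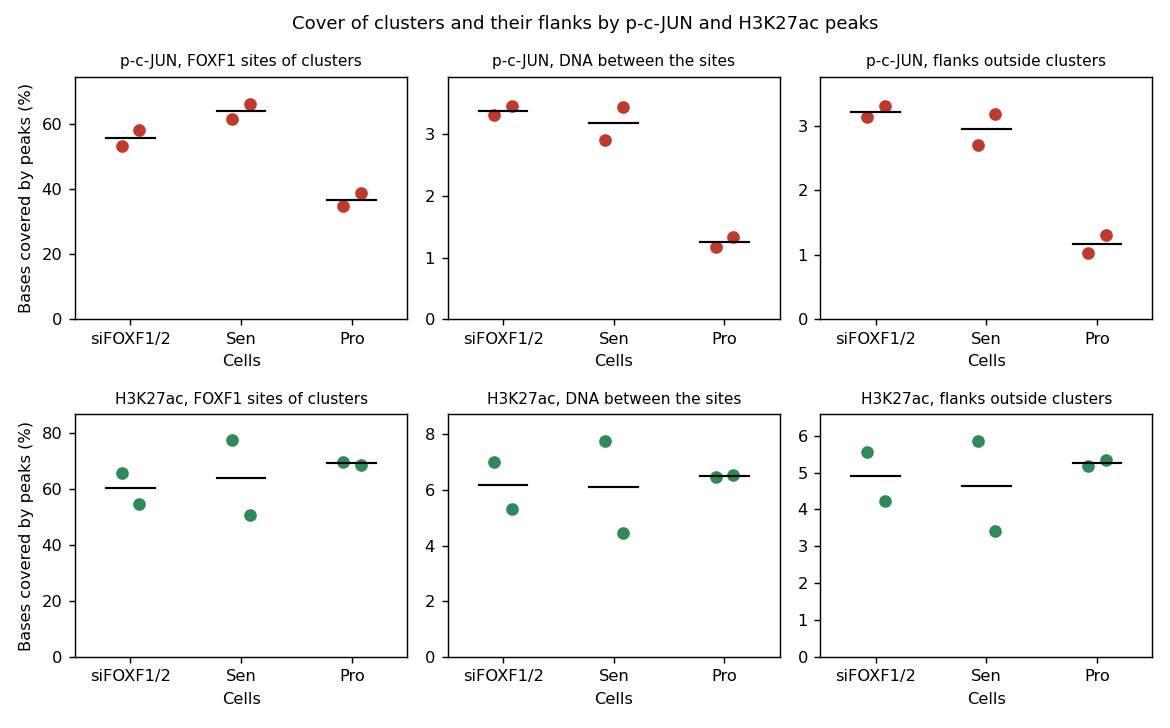
Share of bases covered by p-c-JUN (top) and H3K27ac (bottom) peaks at the FOXF1 sites of clusters, in the DNA between those sites and in the flanks, for siFOXF1/2, Sen (replicates 1 and 2) and Pro cells. Points are libraries and lines are means of 2: at the sites p-c-JUN cover is 53.3% and 58.2% in siFOXF1/2 cells, below the 61.8% and 66.2% of Sen cells, and between the sites the groups overlap.

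Counted as regions, 87 of 1439 p-c-JUN regions at clustered sites (6.05%) were lost after siFOXF1/2 and 6 (0.417%) gained. At single sites 5.72% were lost and 0.238% gained. In Sen cells p-c-JUN already lay at a mean of 80.8% of clustered sites, which left more room for loss than for gain. Between the sites of a cluster 53 of 1161 (4.57%) were lost and 51 (4.39%) gained, as in the genome as a whole, where 4.03% were lost and 4.47% gained. The losses were scattered: 93 clustered sites had p-c-JUN in both Sen and neither siFOXF1/2 library, in 86 clusters, and in no cluster did every site do so. p-c-JUN stayed at 993 clustered sites (61.8%) in all 4 libraries, and in 97 clusters at every site.

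By cluster, the number of sites with p-c-JUN was lower in siFOXF1/2 cells with no overlap in 75 (15.9%), against 10.7% of pairs, and higher in 3 (0.634%), against 0.671% of pairs. Here too a cluster has more sites than a pair and so more chances to differ. The widest gaps downward were on chr8:98073850-98117077, with 1 and 1 of 4 sites in siFOXF1/2 cells against 4 and 4 in Sen cells, where Pro cells had 1 and 2. The cluster on chr20:7821940-7861024 had 2 and 1 of 4 sites in siFOXF1/2 cells against 4 and 4 in Sen cells, and Pro cells had 0 and 1. On chr3:23691760-23727624 there were 2 and 2 of 4 sites against 4 and 4, with 2 and 2 in Pro cells. In all 3 the counts after knockdown touched or overlapped the Pro counts. These 3 were chosen for the widest fall, and in Pro cells p-c-JUN lay at only 47.5% and 53.0% of all clustered sites. Low counts after knockdown can therefore meet the Pro counts through the choice alone. The share of all clusters in which they meet was not counted. The 3 clusters that were higher differed by 1 site each: chr9:94236838-94299046 had 5 and 5 against 4 and 4, and both chr6:139899276-139919337 and chr5:112585809-112607137 had 3 and 3 against 2 and 2.

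At sites with a p-c-JUN peak, its summit lay near the FOXF1 summit. Only sites overlapped by a p-c-JUN peak entered, which itself keeps distances short, and no background distance was computed. The median distance between the p-c-JUN and the FOXF1 summit at clustered sites was 68 to 82.5 bp over the 6 p-c-JUN libraries and both FOXF1 Sen lists, and 56.8% to 62.2% of summit pairs lay within 100 bp. At single sites the medians were 74 to 89 bp. The distances were as short in siFOXF1/2 cells, at 71 to 78 bp, as in Sen cells, at 73 to 82.5 bp. Sites that had no p-c-JUN peak in siFOXF1/2 cells are absent from these values.

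H3K27ac was also present at most clustered sites in the first Sen libraries, and its difference from Pro cells lay within the spread. Peaks lay at 86.4% and 68.6% of clustered sites in Sen replicates 1 and 2, and at 78.5% and 78.2% in Pro cells. The difference was -0.87 ± 8.93 points (exact p = 1), and it followed which Sen library was used: 8.06 points without Sen replicate 2 and -9.80 without replicate 1. Sen replicates 3 and 4 were lower, at 53.6% and 30.9%, with lists of 48859 and 26694 peaks against 84864 and 60862 for replicates 1 and 2. With all 4 Sen libraries the difference from Pro cells was -18.5 points, and the groups still overlapped (exact p = 0.333). That p is not the smallest possible, since 4 libraries against 2 have more arrangements. At 921 clustered sites (57.3%) there was H3K27ac in both Sen libraries and both Pro libraries, at 69 (4.29%) in both Sen and neither Pro library, and at 40 (2.49%) the reverse, with Sen replicates 1 and 2. Single sites had 55.9%, 4.30% and 2.92%. p-c-JUN and H3K27ac peaks were both present in Sen replicates 1 and 2 of each antibody at 872 clustered sites (54.3%, against 51.7% of single sites), and neither was present in any of these 4 lists at 58 (3.61%, against 3.99%).

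H3K27ac peaks covered a larger share of the DNA between the sites of clusters than of the flanks. H3K27ac peaks covered 7.01% and 5.32% of the bases between sites in siFOXF1/2 cells, against 5.57% and 4.23% of the flanks. In Sen replicates 1 and 2 it was 7.75% and 4.45% between sites, against 5.86% and 3.42% of the flanks. In Pro cells it was 6.45% and 6.53%, against 5.18% and 5.33%. The cover was higher between the sites than in the flanks in every one of these 6 libraries, Pro cells included, and flanks of pairs or single sites were not measured for comparison. A peak wider than its site also covers DNA beside it, and in a cluster more site edges face inward than outward. The measure cannot separate such overhang from peaks that lie wholly between the sites.

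Genome-wide 4.51% of H3K27ac regions were gained in Sen cells and 9.56% lost. Inside clusters 168 of 2867 regions (5.86%) were gained and 126 (4.39%) lost, but with only peaks of −log10 q of 5 or more the counts were 83 gained and 143 lost, so the balance of these counts depended on that threshold. Genome-wide shares at that threshold were not computed, so whether clusters differ there from all regions is not known. At single sites, with all peaks, 4.61% were gained and 2.67% lost, and at the clustered sites themselves 4.44% were gained and 2.06% lost. By cluster, the covered share of the span did not overlap between the groups in 61 with Sen higher (12.9%, against 14.8% of pairs) and 111 with Sen lower (23.5%, against 26.8%).

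The cluster on chr7:15976312-16010202, with 3 sites in 33.9 kb, stood among the highest for H3K27ac in Sen over Pro cells and had the widest gap downward after siFOXF1/2. H3K27ac covered 2.06% and 0% of its span in siFOXF1/2 cells, 11.1% and 10.2% in Sen replicates 1 and 2, and 2.33% and 5.01% in Pro cells. No site of it had a p-c-JUN peak in any of the 6 libraries, nor a FOXF1 peak in Pro cells. Between its sites, a p-c-JUN peak that began 0.918 to 1.25 kb from the start of the cluster was present in both siFOXF1/2 and both Sen libraries and in neither Pro library. In Sen replicates 3 and 4, however, the cover was 3.35% and 0%, which overlaps the Pro values. Both rankings use Sen replicates 1 and 2, so a high value in these libraries raises a cluster in both. The other clusters with the widest gaps upward were chr8:128495545-128528237, with 13.2% and 13.0% in Sen cells against 5.71% and 7.59% in Pro cells, and chr4:76468055-76481163, with 12.0% and 7.15% against 1.98% and 2.21%. Their Sen replicates 3 and 4 had 8.89% and 0%, and 5.88% and 2.71%.

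The widest gaps downward were on chr15:89631154-89645243, with 9.67% and 8.84% in Sen cells against 18.4% and 19.0% in Pro cells, and on chr5:148585398-148608656, with 14.8% and 5.58% against 20.8% and 22.4%. The cluster on chr8:67419658-67459368 had 9.03% and 6.21% in Sen cells against 15.0% and 14.4% in Pro cells. In each of these 3, Sen replicates 3 and 4 were lower still, at 4.70% and 0%, 1.94% and 1.58%, and 6.52% and 4.69%, except that replicate 3 of the last lay between the other Sen libraries. All 3 kept p-c-JUN at 2 or more sites in both Sen libraries.

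After siFOXF1/2 the share of clustered sites with H3K27ac overlapped that of Sen cells. It was 76.5% and 68.6% in siFOXF1/2 cells, against 86.4% and 68.6% in Sen replicates 1 and 2, a difference of -4.98 ± 9.76 points (exact p = 1). Without Sen replicate 1 it was 3.95 points, and against all 4 Sen libraries 12.6 points. Of 2845 H3K27ac regions in clusters, 153 (5.38%, genome-wide 4.26%) were lost and 83 (2.92%, genome-wide 5.51%) gained. At the clustered sites 5.44% were lost and 0.739% gained, and at single sites 5.68% and 1.01%.

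By cluster, H3K27ac cover after siFOXF1/2 was higher with no overlap in 36 (7.61%, against 13.4% of pairs) and lower in 70 (14.8%, against 19.4%). The cluster on chr3:70899094-70921626 had the widest gap upward, with 13.8% and 12.5% in siFOXF1/2 cells against 4.08% and 3.05% in Sen cells, and 7.23% and 11.3% in Pro cells. On chr10:53627165-53646443 the cover was 18.2% and 19.1% against 14.0% and 11.6%, and on chr15:50107316-50156649 it was 11.9% and 11.3% against 8.10% and 5.34%. Beside the cluster of chromosome 7, the widest gaps downward were on chr8:68602946-68612851, with 7.38% and 8.87% against 15.5% and 20.1%, and on chr18:18512923-18520306, with 14.2% and 7.15% against 24.2% and 22.2%, the last being 1 of the 7 that kept FOXF1 peaks.

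With JUN family knockdown, H3K27ac lay at 71.3% and 34.8% of clustered sites in cJUN/JUND-KD cells, against 53.6% and 30.9% in Sen replicates 3 and 4. The groups overlapped, with a difference of 10.8 ± 21.5 points (exact p = 0.667), and their lists held 74484 and 29606 peaks against 48859 and 26694. Of 2422 regions in clusters, 166 (6.85%, genome-wide 7.66%) were gained and 76 (3.14%, genome-wide 2.74%) lost. H3K27ac cover was higher with no overlap in 55 clusters (11.6%, against 17.4% of pairs) and lower in 14 (2.96%, against 4.55%). The 3 widest gaps upward all belonged to the 7 clusters that kept FOXF1 peaks: chr2:133011955-133038393 had 19.6% and 19.0% in cJUN/JUND-KD cells against 5.03% and 5.05%, chr2:92281272-92320525 had 22.0% and 22.5% against 8.52% and 10.1%, and chr2:89867179-89879354 had 24.2% and 28.8% against 12.4% and 11.3%. The widest gaps downward were smaller, led by chr6:21808201-21857198 with 3.95% and 2.27% against 6.29% and 6.39%, chr13:47971894-47995422 with 1.40% and 0% against 6.19% and 2.97%, and chr1:65431685-65468693 with 1.73% and 0.73% against 4.31% and 2.89%.

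In the p300 and CBP experiment the lists were short, and few clustered sites had H3K27ac in either group. The share was 5.48% and 3.55% in sip300/CBP cells, against 8.09% and 2.61% in their control, with lists of 4186 and 1549 peaks against 8234 and 2046. The difference of -0.84 ± 2.90 points lay within the spread (exact p = 1). Of 398 regions in clusters, 26 (6.53%, genome-wide 2.02%) were gained and 4 (1.01%, genome-wide 2.69%) lost, but without the 7 clusters that kept FOXF1 peaks only 12 were gained. The share of regions that these 12 make up was not computed. H3K27ac cover was higher with no overlap in 21 clusters (4.44%, against 1.86% of pairs) and lower in 16 (3.38%, against 1.79%). The 3 widest gaps upward again belonged to the 7: chr18:18512923-18520306 had 55.5% and 50.2% in sip300/CBP cells against 33.4% and 31.0% in the control, chr2:89867179-89879354 had 16.3% and 24.5% against 0% and 0%, and chr2:92281272-92320525 had 25.3% and 21.2% against 7.91% and 8.87%. In the widest gaps downward the cover was 0% and 0% in sip300/CBP cells, against 7.65% and 3.90% on chr2:173504676-173521024, 2.98% and 2.66% on chr3:67685466-67705037, and 4.85% and 2.24% on chr3:152939637-152965582.

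Clustered and single sites differed by at most 3.05 points in any p-c-JUN or H3K27ac library. For p-c-JUN, the share of clustered sites with a peak minus that of single sites was -0.72 to 2.64 points over 6 libraries, above 0 in 5. For H3K27ac it was -1.92 to 3.05 points over 14 libraries, above 0 in 10, and for FOXF1 in Pro cells 0.82 and 0.36 points. In short lists a small difference in points was a large one in proportion. FOXF1 peaks lay at 1.43% and 1.06% of clustered sites in siFOXF1/2 cells, against 0.357% and 0.386% of single sites. Those at clustered sites all lay in the 7 clusters by definition, since such peaks set these clusters apart. In cJUN/JUND-KD cells FOXF1 peaks lay at 2.24% and 2.18% of clustered sites, against 1.27% and 1.99% of single sites, and at 0.444% and 0.381% of clustered sites without the 7 clusters. H3K27ac in sip300/CBP cells lay at 5.48% and 3.55% of clustered sites, against 3.37% and 1.84% of single sites, and at 4.19% and 2.28% of clustered sites without the 7. H3K27ac in Sen cells, the group with most libraries, was higher at clustered sites by 1.35 ± 0.88 points (SD, n = 4) and in 4 of 4 libraries (exact two-sided sign-flip permutation test, p = 0.125, the smallest possible with 4), but with the shorter gap limit that was tried the mean was -0.71 points. For H3K27ac in siFOXF1/2 cells it was 3.05 and 1.55 points (exact sign-flip p = 0.5, the smallest possible with 2). Without the 7 clusters, and with single sites as before, 1 of those 4 Sen libraries was below 0 (-0.11 points), and FOXF1 in Pro cells became -0.36 and -0.45 points.

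**Figure D4:**
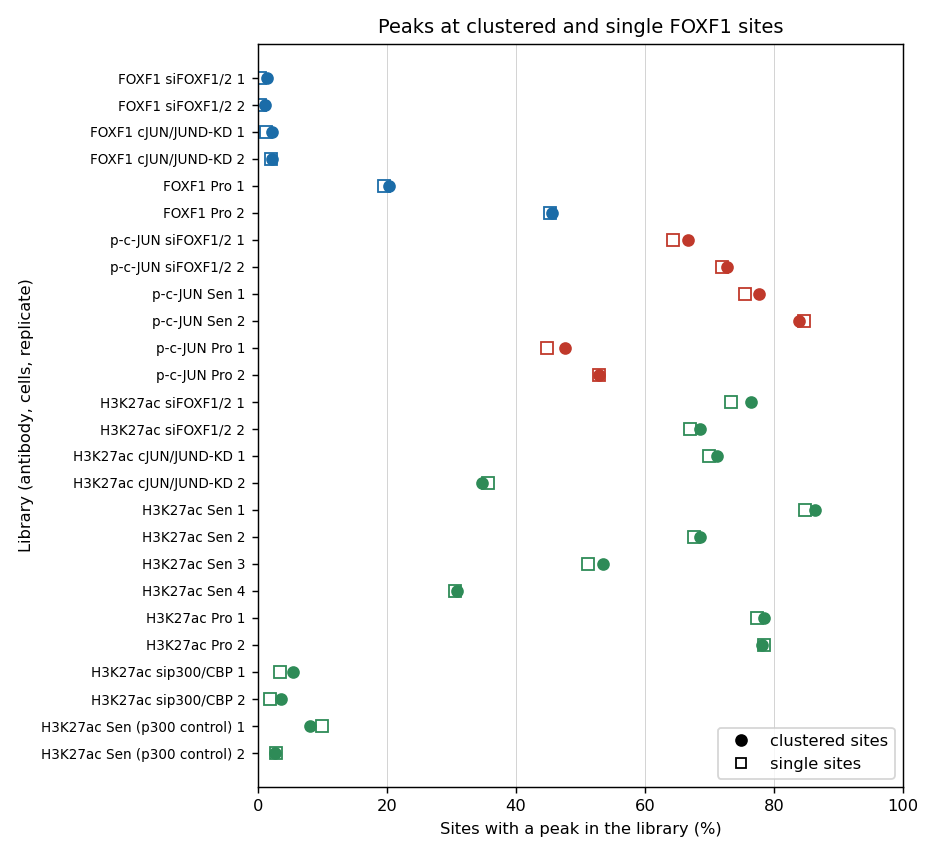
Share of FOXF1 sites with a peak (%) in each library outside the FOXF1 Sen lists that chose the sites, at clustered sites (filled circles) and at single sites (open squares). Circles and squares lie within 3.05 points of each other in all p-c-JUN and H3K27ac libraries, and in the short lists near 0% such gaps are large in proportion.

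Within most libraries, the state of a site said little of the state of its neighbour. The correlation of peak presence between neighbouring sites (phi, where 1 means always the same state and 0 no relation) is given as a description with no test, without the 7 clusters. Gaps under 25 kb join sites of clusters and pairs, and longer gaps join sites of different chains, single ones included. At gaps under 25 kb, in 3 bins, phi ran from -0.123 to 0.0789 over the 6 p-c-JUN libraries, from -0.173 to 0.0839 over 10 H3K27ac libraries and from -0.136 to 0.0498 over the 2 FOXF1 Pro libraries. At gaps of 25 to 250 kb it ran from -0.0498 to 0.0611 over the p-c-JUN libraries and from -0.0286 to 0.106 over the 10 H3K27ac libraries. The lowest value of each of these 3 groups of libraries was among the 363 neighbours less than 5 kb apart. There the H3K27ac and FOXF1 Pro libraries had values of both signs. All 6 p-c-JUN libraries were below 0 there, from -0.123 to -0.0281, against -0.0334 to 0.0789 at gaps of 5 to 25 kb. The 4 H3K27ac libraries of the p300 and CBP experiment, with the shortest H3K27ac lists, went the other way at gaps under 5 kb, at 0.315 and 0.243 in sip300/CBP cells and 0.23 and 0.242 in their control. Those values rest on 1 to 6 neighbours that both had a peak, and at gaps of 5 to 25 kb the 4 libraries ran from -0.0186 to 0.12. With the 7 clusters kept in, the same 4 libraries had 0.308 to 0.521 at gaps under 5 kb, and the other H3K27ac libraries -0.161 to 0.102. The sites compared share their library and its depth.

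**Figure D5:**
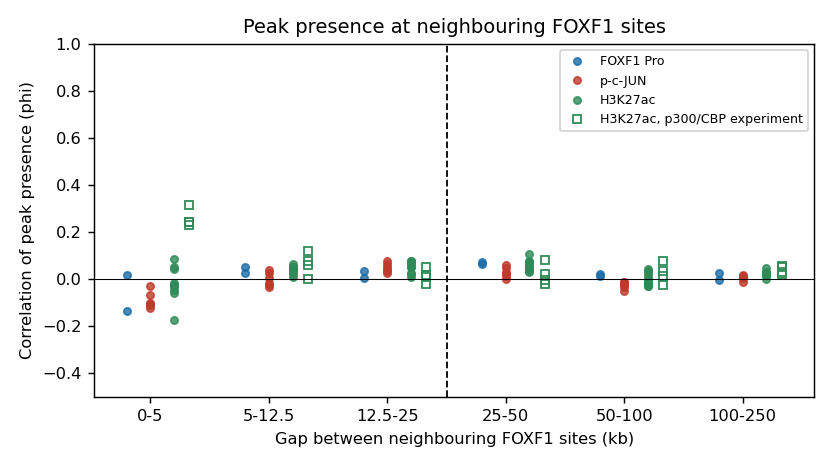
Correlation (phi) of peak presence between neighbouring FOXF1 sites by the gap between them (kb), 1 point per library (FOXF1 in Pro cells blue, p-c-JUN red, H3K27ac green, with open squares for the 4 libraries of the p300 and CBP experiment), without the 7 clusters that kept FOXF1 peaks. The dashed line marks the limit of 25 kb: points lie between -0.173 and 0.12, except for the open squares at gaps under 5 kb, at 0.23 to 0.315. At gaps under 5 kb all 6 p-c-JUN points are below 0.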

How the data were processed

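CUT&RUN libraries of FOXF1 (8), p-c-JUN (6) and H3K27ac (14) in IMR-90 ER:Ras cells were deposited as narrowPeak lists, 1 per library. The tools, per the submitters' processing notes, were MACS2 3.0.0, deepTools 3.1.1, SAMtools 1.9 and Bowtie2 2.3.4.1, and the build was hg19. Their parameters, the control used for peak calling and the use of any spike-in are not given in the sources used here. The authors' peak caller gave every deposited peak a score for display, the fold of its summit over the local background, −log10 values of p and q, and a summit offset in bp. These were used only to describe, rank or cut peaks within a list. The read depth is unknown, so no interval or detection floor is given. A short list can miss sites that a longer one holds.

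Groups came from the sample titles. No lists were identical. Peaks off chromosomes 1 to 22 and X were left out (475 of 1123812, 0.0423%). No list of hg19 regions to exclude was applied. Sites, chains and clusters were built as the report states, with Python 3.11.15 and numpy 2.4.6, and were recovered in full (100%) from 4717 simulated regions. A site had a peak of a library where they overlapped by at least 1 bp. Shares per library were compared by exact two-sided permutation tests, and clustered minus single sites within a library by exact sign-flip tests. Regions were the joined peaks of the 4 libraries of a comparison. Clusters are named if among the 10 with most sites (ties by shorter span), or among the 3 in each direction of a comparison with the widest gap between groups that do not overlap. The clusters and the lists and tests were chosen with earlier results of these data known. Gene lists and motifs had been listed too, but with no hg19 annotation or sequence used here they were not applied.

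Same-numbered libraries of the groups compared did not vary together (correlation of replicate differences over regions -0.172 to 0.0141), so the numbers were not taken to pair them. Alternatives were gaps of 12500 and 50000 bp, 5 or more sites, −log10 q of 5 or more, lists cut to equal length by −log10 q, an overlap of 50% of the shorter peak, each replicate left out, all 4 H3K27ac Sen libraries, single sites weighted in 5 strata of FOXF1 fold, and a replicate block. Chosen after seeing the data were a crossed block and leaving out the 7 clusters that kept FOXF1 peaks or the 10 near a longest peak-free stretch (2 Mb or less).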

Additional observations from a re-analysis of the deposited data

Results flagged for a closer look

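In the p300 and CBP experiment, the share of sites with H3K27ac at clustered minus single sites was above 0 in both knockdown libraries and below 0 in both control libraries. It was 2.10 and 1.70 points in sip300/CBP cells, against -1.92 and -0.12 points in their Sen control, a difference of 2.92 points (exact two-sided permutation test, p = 0.333, the smallest that 2 libraries against 2 allow). Without the 7 clusters that kept FOXF1 peaks in siFOXF1/2 cells, and with single sites unchanged, it was 0.81 and 0.44 points against -2.39 and -0.70. Of the 31 sites in those 7 clusters, 22 and 21 had H3K27ac in sip300/CBP cells and 10 and 10 in the control. The lists held 4186 and 1549 peaks in sip300/CBP cells and 8234 and 2046 in the control, and their part in the result was not tested.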

How the results depend on the processing

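Differences are in percentage points, in the order in which each comparison was given. Of the alternatives run, 368 values kept their direction or, for counts, stayed within 1.5 times. Another 58 changed direction and 15 counts moved by over 1.5 times. Some of the 368 could not change. A replicate block, crossed or not, keeps the mean difference, and strata of FOXF1 fold reweight only single sites. The 368 are therefore no measure of stability. No p below 0.333 was possible between groups, nor below 0.125 between clustered and single sites, so no call could be lost, and a kept p says nothing of stability. The 2 p-c-JUN comparisons at clustered sites kept their direction under every alternative run.

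The number of clusters was 162 with the shorter gap limit, 933 with 50000 bp, 37 with 5 or more sites, 76 with −log10 q of 5 or more, and 663 to 4542 with only 1 FOXF1 Sen list. Leaving out each library in turn gave 27.4 to 33.6 for p-c-JUN in Sen over Pro cells and -14.1 to -7.90 after siFOXF1/2. For H3K27ac it gave -9.80 to 8.06 in Sen over Pro cells, -13.9 to 3.95 after siFOXF1/2, -7.47 to 29.0 in cJUN/JUND-KD cells and -3.58 to 1.898 in sip300/CBP cells. With all 4 H3K27ac Sen libraries, siFOXF1/2 differed by 12.6 and cJUN/JUND-KD by -6.86, and in covered span by 2.64 and -1.74. For sip300/CBP the difference was 1.93 with the shorter gap limit, 6.28 with 5 or more sites, 2.87 with −log10 q of 5 or more and 0.87 at equal list length, and in covered span 0.26, 0.57, 0.32 and 0.10. At equal length H3K27ac in Sen over Pro cells was 4.08. Covered span after siFOXF1/2 for H3K27ac was 0.12 with gaps of 50000 bp.

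Each library left out moved covered span between -0.69 and 0.0783 for p-c-JUN after siFOXF1/2, and for H3K27ac between -3.03 and 1.68 in Sen over Pro cells, -2.52 and 2.18 after siFOXF1/2, -1.42 and 3.55 in cJUN/JUND-KD cells and -0.21 and 0.17 in sip300/CBP cells.

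Clustered minus single sites was small as reported and often changed sign under the alternatives. With the shorter gap limit it was -0.71 for H3K27ac in Sen, -0.93 in Pro, -0.59 in cJUN/JUND-KD and -0.14 in siFOXF1/2 cells, and for p-c-JUN -1.71 in Sen and -0.0586 in siFOXF1/2 cells. With 5 or more sites it was -0.34 for H3K27ac in Pro cells. With −log10 q of 5 or more it was -2.27 for H3K27ac in siFOXF1/2 cells and 3.18 in the p300 control. Without the 7 clusters it was -0.41 for FOXF1 in Pro and -0.57 for H3K27ac in cJUN/JUND-KD cells. Leaving out each library gave -0.21 to 9.25 for H3K27ac in Pro cells, -0.95 to 3.07 in cJUN/JUND-KD cells and -0.72 to 7.45 for p-c-JUN in Sen cells. Its change between groups was -1.62 (Sen over Pro), -0.92 (siFOXF1/2) and 4.55 (cJUN/JUND-KD) for H3K27ac with −log10 q of 5 or more, -0.40 (Sen over Pro) with 50% overlap, 0.23 (cJUN/JUND-KD) with gaps of 50000 bp, and 0.59 for p-c-JUN in Sen over Pro cells at equal length. With each library left out, FOXF1 Sen libraries included, it ran from -2.08 to 1.16 for p-c-JUN in Sen over Pro cells and -0.63 to 2.29 after siFOXF1/2. For H3K27ac it ran from -0.62 to 1.80 after siFOXF1/2 and -2.39 to 0.64 in cJUN/JUND-KD cells.

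Regions in clusters for p-c-JUN, Sen over Pro, at equal length were 131 gained and 106 lost. With −log10 q of 5 or more in the same clusters, 83 H3K27ac regions were gained in Sen cells, 93 lost after siFOXF1/2, 68 gained and 29 lost in cJUN/JUND-KD cells, and 11 gained and 0 lost in sip300/CBP cells. At equal length 141 were lost in cJUN/JUND-KD cells, and without the 7 clusters 12 were gained in sip300/CBP cells. Genome-wide shares under these settings were not computed.

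With a replicate block, p-c-JUN at clustered sites differed by 30.5 points in Sen over Pro cells and -11.0 after siFOXF1/2, each with exact p = 0.5, the smallest that 2 pairs allow; the block cannot change the size of a difference, and it changed no call. A crossed pairing of cJUN/JUND-KD and of sip300/CBP libraries changed none either. Strata of FOXF1 fold, which can change only values that use single sites, reversed no difference. The cause of these changes was not tested.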

Other observations

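The strength of peaks at clustered sites, taken as their rank by −log10 q in their own list, was above the middle of each of the p-c-JUN and H3K27ac lists named here. For p-c-JUN, the median peak at a clustered site stood at percentile 77.9 and 76.3 of its list in siFOXF1/2 cells, 74.996 and 79.4 in Sen cells and 69.3 and 71.9 in Pro cells. At single sites it stood at 74.1 and 74.3 in siFOXF1/2 cells, 74.7 and 77.4 in Sen cells and 67.1 and 70.2 in Pro cells. For H3K27ac, the median percentile at clustered sites was 75.9 and 72.0 in siFOXF1/2 cells, 77.2 and 67.8 in Sen replicates 1 and 2, and 74.4 and 74.5 in Pro cells. The authors' fold enrichment of H3K27ac peaks had a median at clustered sites below that at single sites in these 6 libraries, for example 3.94 against 4.37 in Sen replicate 1 and 4.20 against 4.48 in Pro replicate 1. Sites of 1 library share that library, and these values are descriptions with no test.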
